A study of Mus musculus with 6 samples.

Results

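Cathepsins are the proteases of lysosomes and cystatins are inhibitors of the cysteine cathepsins among them. Of the 27378 genes counted, 10 were followed: the cathepsin genes Ctsa, Ctsb, Ctsc, Ctsd, Ctsh, Ctsl, Ctss and Ctsz and the cystatin genes Cst3 and Cst7. They were taken by their GENCODE vM21 symbols and read in microglia-like, monocyte/macrophage-like and dendritic-like cells of 6 libraries. The list was chosen with earlier results of these data known. All 10 passed the filter on low counts in every fit of these 3 classes.

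The libraries hold mouse immune cells sorted on CD45, a surface protein of leukocytes, and were made with 10x 3' v3 chemistry, which tags the 3' ends of transcripts and counts molecules by unique identifiers (UMIs). Healthy brain (trp53 wt, rbpj wt), control tumours (trp53 ko, rbpj wt) and Rbpj-deleted tumours (trp53 ko, rbpj ko) gave 2 libraries each. The tumour groups thus share the Trp53 deletion, and only the second also lacks Rbpj, the DNA-binding partner of Notch receptors. Early gliomas were found by GFP from the Rosa-CAG::GFP reporter of Cre activity and micro-dissected. The Cre driver, strain, age and sex of the mice are not in the labels, and the sorted leukocytes are not labelled as deleted themselves. According to the design text, 9 healthy brains, 15 control tumours and 9 tumours without Rbpj were pooled, whereas the extraction text puts the cells of each mouse in a well of its own. No source says which mice are in which library, so every p-value below measures the spread between libraries, which may be technical.

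Library totals ran from 17430763 to 55229031 UMIs, and 488 to 5929 cells per library remained after filtering, with medians of 5369 to 9868 UMIs per cell. Of the cells kept, 73 had a barcode sequence also present in another library. Microglia-like cells numbered 4663 and 1547 in healthy libraries 1 and 2, 221 and 162 in the control tumours, and 961 and 464 in the Rbpj-deleted tumours. In the same order there were 508, 269, 202, 77, 652 and 741 monocyte/macrophage-like cells and 71, 40, 78, 15, 146 and 88 dendritic-like cells. The summed level of 11 microglia markers was 10710 to 21265 counts per 1000000 UMIs (CPM) in the microglia-like class and 723 to 8319 CPM in the other 2 classes. In the dendritic-like class 14 dendritic markers summed to 1115 to 3137 CPM. In the monocyte/macrophage-like class, called macrophages below, 9 border macrophage markers summed to 15428 and 14821 CPM in healthy brain. They were at 2099 and 2316 in control and 2572 and 2156 in Rbpj-deleted tumours. In the same order, 8 monocyte markers were at 275, 837, 4303, 1662, 892 and 4045 CPM. Microglia markers in this class exceeded both sums in control tumour 2 (5413) and Rbpj-deleted tumour 1 (5197). A split known from earlier work on these files, and not a label, puts healthy library 1 beside the control tumours and healthy library 2 beside the Rbpj-deleted ones. Where this split as a batch term ended a call, that is said beside it. Some cells stayed outside the named classes. One such cluster of 254 cells, led by Syngr1, Ldhb and Cst7, had a median of 1953 UMIs, 0.294 of the median of its libraries, and held 88 and 11 cells in healthy brain, 22 and 14 in control and 90 and 29 in Rbpj-deleted tumours. CPM here is the share of a gene in the UMIs of 1 class in 1 library, so a level can fall because other transcripts rose. Fewer transcripts per cell and a change in the mix of cells within a class cannot be told apart in such sums.

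Most cysteine cathepsins are made as inactive precursors that mature in the acid of the lysosome. There they degrade proteins taken up by phagocytosis and, in antigen-presenting cells, trim the invariant chain that blocks the groove of class II molecules. Ctsb, Ctsl and Ctss cut inside proteins, Ctsh and Ctsc remove residues from the amino end, Ctsz and the serine carboxypeptidase Ctsa remove them from the carboxyl end, and Ctsd is an aspartic protease. Cst3 encodes cystatin C, a secreted inhibitor that microglia are known for, and Cst7 encodes cystatin F, which is delivered to lysosomes, restrains cathepsin C and is a known marker of activated microglia and of cytotoxic lymphocytes.

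The genes lie on 6 chromosomes of GRCm38 (mm10). Ctsa (2:164832873-164841032, plus strand), Cst3 (2:148871722-148875692, minus), Cst7 (2:150570415-150578944, plus) and Ctsz (2:174427493-174439039, minus) are on chromosome 2. Ctsc (7:88278085-88310888, plus) and Ctsd (7:142375911-142388038, minus) are on chromosome 7. Ctss is at 3:95526786-95556403 (plus), Ctsh at 9:90054152-90076089 (plus), Ctsl at 13:64359337-64370890 (minus) and Ctsb at 14:63122462-63145923 (plus). All 10 are protein-coding. UMI reads can be split with or lost to overlapping or similar genes, and the sources used here do not give how the counting treated strand. In the last 500 bases of the transcripts, the end that such libraries read, 100% of the 31-base words of Ctsb also occur in other genes, chiefly the opposite-strand Fdft1. The share there was 29.97% for Ctsa, which overlaps the opposite-strand Pltp, 2.5% for Ctsc, 2.38% for Ctsh, 1.05% for Ctsl and 0% for the other 5 genes. Over whole transcripts it was higher for Ctsl (28.2%, through an antisense transcript and a pseudogene) and Ctsd (33.2%, through the same-strand read-through gene Gm49369). Levels of Ctsb and Ctsa are therefore uncertain. Those of Ctsd and Ctsl are uncertain too, to the extent that reads fall outside the last 500 bases. For Ctsd the shared words lie on the same strand, so strand-aware counting would not part them.

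RefSeq promoter windows (GRCm38.p6), each 300 bases long with 250 before the start site and 50 after it, were at hand for 8 of the 10 genes, with 2 windows for Ctsa. The following 4 are shown because Ctsa and Ctsd hold the palindrome of the lysosomal gene element, and because Ctss and Cst7 are the genes that were called against healthy brain in macrophages of both tumour groups. Each runs 5′ to 3′ on the strand of the gene, and capitals mark the motifs described after them.
Ctsa (chr2:164833523-164833822, plus strand): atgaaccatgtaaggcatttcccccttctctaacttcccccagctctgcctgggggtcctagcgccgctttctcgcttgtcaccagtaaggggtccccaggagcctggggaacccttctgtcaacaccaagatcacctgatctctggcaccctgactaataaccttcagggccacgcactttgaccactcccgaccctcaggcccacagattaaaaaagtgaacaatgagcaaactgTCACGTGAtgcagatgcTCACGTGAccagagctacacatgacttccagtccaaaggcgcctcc
Ctsd (chr7:142387778-142388077, minus strand): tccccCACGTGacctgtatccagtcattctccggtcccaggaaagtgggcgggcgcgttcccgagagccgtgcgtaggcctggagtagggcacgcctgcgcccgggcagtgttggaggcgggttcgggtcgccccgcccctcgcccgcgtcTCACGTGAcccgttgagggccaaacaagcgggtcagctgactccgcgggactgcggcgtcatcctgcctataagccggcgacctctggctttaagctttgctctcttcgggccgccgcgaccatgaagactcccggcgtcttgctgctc
Ctss (chr3:95526536-95526835, plus strand): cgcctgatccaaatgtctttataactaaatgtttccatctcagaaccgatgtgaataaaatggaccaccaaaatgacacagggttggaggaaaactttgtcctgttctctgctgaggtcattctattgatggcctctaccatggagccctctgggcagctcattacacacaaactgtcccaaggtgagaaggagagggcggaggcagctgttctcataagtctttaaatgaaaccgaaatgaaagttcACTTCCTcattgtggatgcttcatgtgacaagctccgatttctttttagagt
Cst7 (chr2:150570165-150570464, plus strand): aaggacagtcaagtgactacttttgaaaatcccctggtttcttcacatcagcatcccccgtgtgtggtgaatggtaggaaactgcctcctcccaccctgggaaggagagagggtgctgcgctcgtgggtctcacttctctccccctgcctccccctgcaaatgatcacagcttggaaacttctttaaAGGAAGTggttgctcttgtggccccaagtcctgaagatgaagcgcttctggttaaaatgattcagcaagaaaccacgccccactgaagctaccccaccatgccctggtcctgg

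Both strands were searched for 5 motifs. TCACGTGA, the core bound by the lysosomal regulator Tfeb and its relatives, was in 0.974% of the 32851 promoters of this length. It stood in the Ctsa window at -13 and 5 from the start site and in the Ctsd window at -99. The E-box CACGTG lies within it and was in 7.15% of promoters. It also occurred by itself in Ctsd at -245 and in Ctsl at -236. AGGAAGT, an ETS site of the kind bound by the myeloid factor PU.1, was found in Cst7 at -63, Ctsc at -151 and Ctss at -2, against 9.35% of promoters. TTCNNNGAA, a STAT site present in 8.3%, was in Ctsc. GTGGGAA, the RBPJ site present in 6.38%, was in none of the 9 windows. These matches describe letters only.

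The 3 classes differed in most of these genes, as the plot of levels by library shows. Macrophages and microglia of the same libraries were compared first, with library as a block. In that comparison 8 of the 10 genes passed an adjusted p of 0.05 (Benjamini-Hochberg over all genes, as in every adjusted p here): 7 were lower in monocyte/macrophage-like cells and 1 was higher. Over the 10845 genes tested 49.8% passed, 23.1% lower and 26.8% higher. The median difference was -0.69 on the log2 scale for the 10 genes and -0.01 for all genes.

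**Figure D1:**
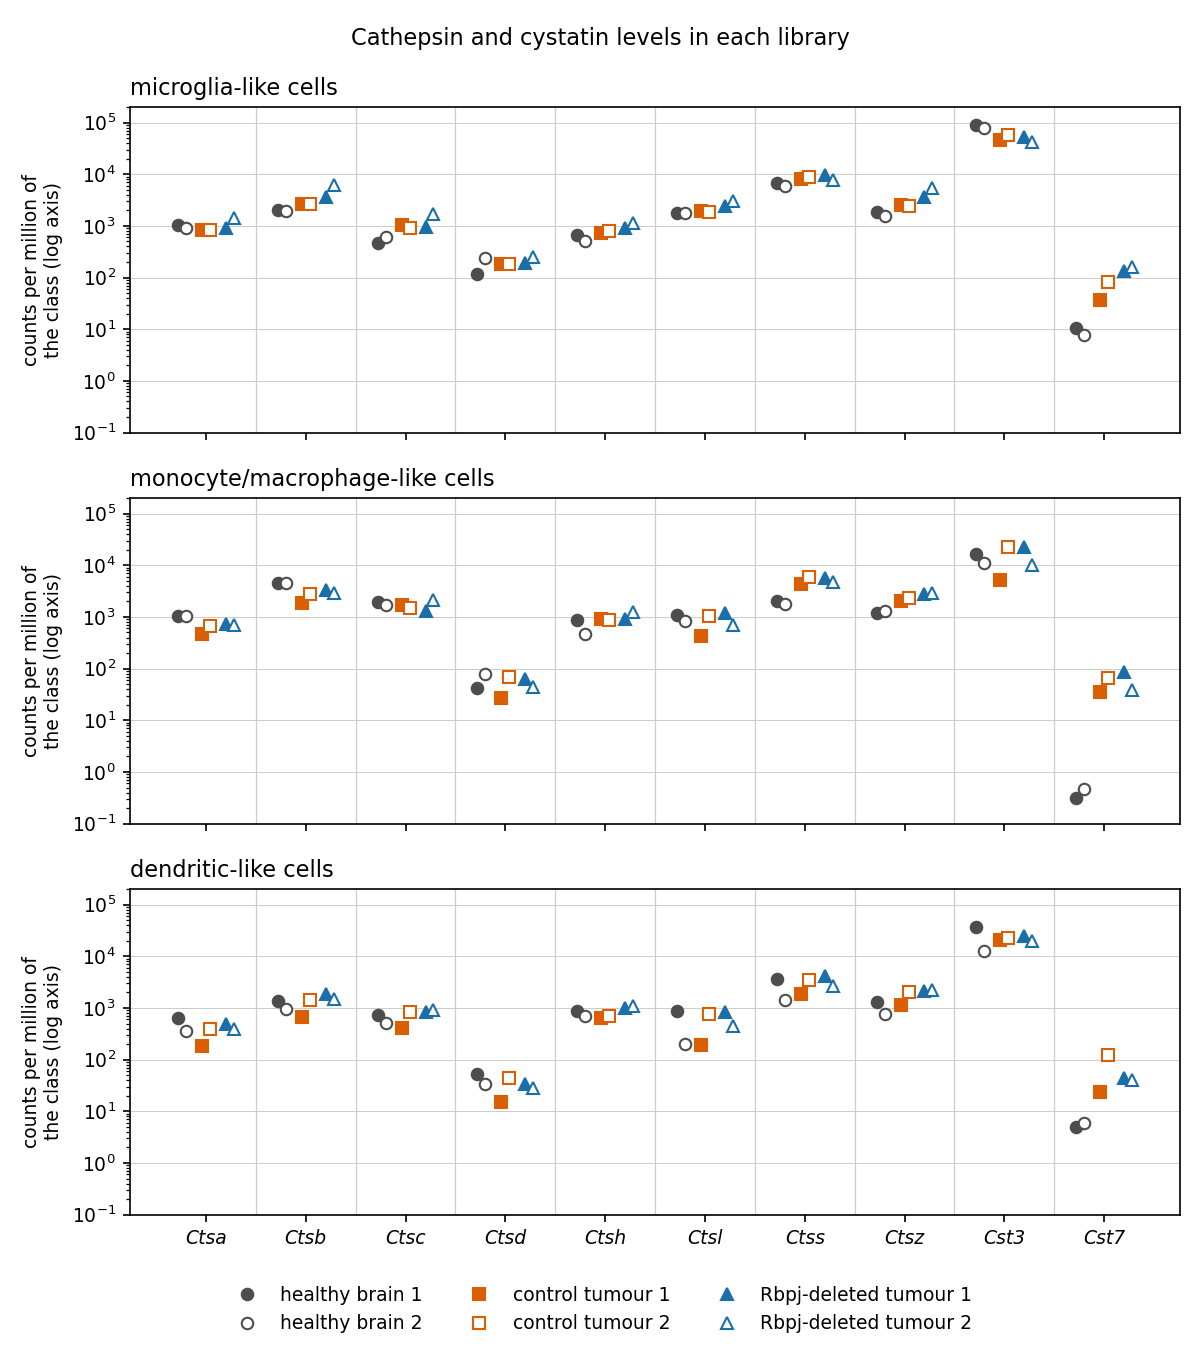
Levels of the 10 genes in CPM of the class (log axis) in each of the 6 libraries, by class; circles are healthy brain, squares control tumours and triangles Rbpj-deleted tumours, filled for replicate 1 and open for replicate 2. Cst7 in monocyte/macrophage-like cells is at 0.311 and 0.461 in healthy brain and at 35.8 to 86.3 in tumours, while Cst3 is high in microglia-like cells of every library.

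Cst3, the cystatin C gene, had the largest median difference within libraries between macrophages and microglia (-2.26 on the log2 scale). Its level in microglia-like cells was 91068 and 79494 in healthy brain, 45544 and 57301 in control and 51671 and 42392 in Rbpj-deleted tumours (CPM). In monocyte/macrophage-like cells it was 16685 and 11161 in healthy brain, 5152 and 23065 in control and 22581 and 10118 in Rbpj-deleted tumours. All 6 libraries had less Cst3 in macrophages, by -2.10 ± 0.23 (log2 ± SE, adjusted p = 0.000152, edgeR quasi-likelihood). B-like cells, taken as a class that should make little of it, held 587 to 2408 CPM. T-like cells held 484 to 1051 CPM in tumours, but 1544 to 11099 CPM in healthy brain, from 12 and 15 cells. The level in macrophages followed that of microglia markers in the same sums. The 11 microglia markers together were at 5413 CPM in control tumour 2, 5197 in Rbpj-deleted tumour 1, 4114 and 3296 in healthy libraries 1 and 2, 2435 in Rbpj-deleted tumour 2 and 1041 in control tumour 1. Cst3 put the 6 libraries in the same order. The part of microglial RNA in the macrophage level of Cst3 was not tested. Cst7 was also called lower in macrophages, with fitted differences of -2.54 to -1.78 over 15 alternatives, against -2.48 to -1.83 for Cst3. Within libraries the log2 ratio of Cst7 ran from -3.17 in healthy library 1 to -0.009 in control tumour 1 (median -1.35). Healthy macrophages had 2 Cst7 counts in all.

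Among the endopeptidases, Ctss in microglia-like cells was at 6697 and 5942 in healthy brain, 8097 and 9008 in control and 9559.7 and 7585 in Rbpj-deleted tumours. Macrophages had less in all 6 libraries (difference -1.0 ± 0.11, adjusted p = 0.0001), and so had dendritic-like cells (-1.42 ± 0.15, adjusted p = 1.27e-05). Ctsl was also lower in macrophages (-1.28 ± 0.19, adjusted p = 0.000814) and in dendritic-like cells (-2.09 ± 0.46, adjusted p = 0.0214) than in microglia. Ctsd had the largest differences of the proteases, -1.82 ± 0.17 (adjusted p = 9.12e-05) in macrophages and -2.43 ± 0.26 (adjusted p = 0.00029) in dendritic-like cells, over levels of 14.9 to 255 CPM in the 3 classes. Ctsb did not pass between macrophages and microglia (0.18 ± 0.13, adjusted p = 0.288). It was higher in macrophages in 3 libraries and lower in 3.

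Ctsc, the activator of granule proteases, was the only gene of the 10 that was higher in macrophages than in microglia, in all 6 libraries. In macrophages it was at 1937 and 1734 in healthy brain, 1711 and 1490.1 in control and 1302 and 2118 in Rbpj-deleted tumours, and in microglia at 469.7 and 615 in healthy brain, 1039.5 and 892 in control and 970.3 and 1721 in Rbpj-deleted tumours (difference 1.02 ± 0.11, adjusted p = 0.000106). The gap in single libraries ran from 0.30 to 2.04 on the log2 scale and was widest in healthy brain. Ctsa (-0.32 ± 0.12, adjusted p = 0.0433) and Ctsz (-0.37 ± 0.11, adjusted p = 0.0232) were lower in macrophages, in 4 and 6 of the 6 libraries. Both calls were lost without healthy library 1, control tumour 1 or Rbpj-deleted tumour 2, and that of Ctsa also without healthy library 2 and with the library split as a batch. Ctsh, the aminopeptidase, did not pass in any pair of classes, though it did between macrophages and microglia when barcodes with markers of a pair of lineages were kept. Its levels in dendritic-like cells, 870.0 and 697 in healthy brain, 652 and 687 in control and 980.0 and 1088 in Rbpj-deleted tumours, lay within the range of the other classes, 474 to 1237 CPM.

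Dendritic-like cells had less than microglia of 8 genes (47.7% of 10196 genes passed in either direction, 22.9% lower) and less than macrophages of 5 genes, Ctsa, Ctsb, Ctsc, Ctsd and Ctsl (22.9% of 10077 passed in either direction, 11.1% lower). Against macrophages, Ctsl lost its call in 8 of 15 alternatives (differences -1.09 to -0.25) and Ctsd in 6 (-0.88 to -0.05). Ctsa, Ctsb and Ctsc kept theirs in all 15. Ctsb was lower than in macrophages in all 6 libraries (-1.29 ± 0.11, adjusted p = 1.82e-06), as was Ctsc (-1.26 ± 0.17, adjusted p = 0.000752). Cst3 in dendritic-like cells was at 36936 and 12705 in healthy brain, 20717 and 22825 in control and 24324 and 20194 in Rbpj-deleted tumours, above the macrophage level in 5 of 6 libraries, a difference that did not pass (0.80 ± 0.33, adjusted p = 0.198). Without a filter on low counts, 8 genes passed between dendritic-like cells and macrophages.

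In microglia-like cells Cst7 was higher in both tumour groups than in healthy brain, and 5 cathepsin genes were higher in Rbpj-deleted tumours. Control tumours against healthy brain gave 1 call among the 10 genes, Cst7, where 3.15% of 11174 genes were called (2.79% higher). Rbpj-deleted tumours against healthy brain gave 6 calls, all higher, where 11.9% of genes were called (8.26% higher). These were Ctsb, Ctsc, Ctsh, Ctsl, Ctsz and Cst7. Both comparisons use the same healthy libraries, so they are not independent of each other. The median log2 difference of the 10 genes was 0.51 and 0.89 in the 2 comparisons, against -0.02 and -0.03 over all genes. Separate ranges were common with 2 libraries per group. Of all 11174 genes, 2044 lay above both healthy libraries in both control tumours and 3795 below, among them 7 and 2 of the 10. For Rbpj-deleted tumours these numbers were 2076 and 4800, with 7 and 1 of the 10. Between Rbpj-deleted and control tumours they were 1888 above and 3352 below, with 7 and 0 of the 10.

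Among the exopeptidases, Ctsz rose in the Rbpj-deleted tumours. Its microglial level was 1886 and 1558 in healthy brain, 2496 and 2464 in control and 3598 and 5506 in Rbpj-deleted tumours, in separate ranges for the 3 groups (Rbpj-deleted against healthy 1.60 ± 0.24, adjusted p = 0.00154). Ctsc rose as well, from a level of 469.7 and 615 in healthy brain, 1039.5 and 892 in control and 970.3 and 1721 in Rbpj-deleted tumours, where the tumour groups overlap (1.51 ± 0.27, adjusted p = 0.00448). For Ctsh the levels were 678 and 502 in healthy brain, 743 and 803 in control and 917 and 1126 in Rbpj-deleted tumours, again without overlap between groups (0.99 ± 0.23, adjusted p = 0.0141). Leaving out healthy replicate 2 or either control library ended the call of Ctsh. Ctsa, at 1042 and 906 in healthy brain, 843 and 830.3 in control and 917 and 1429.6 in Rbpj-deleted tumours, was below both healthy libraries in the control tumours, was highest in Rbpj-deleted tumour 2 and did not pass (0.47 ± 0.24, adjusted p = 0.227).

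Of the endopeptidases, Ctsb was at 1995 and 1979 in healthy brain, 2630 and 2623 in control and 3688 and 6064 in Rbpj-deleted tumours. Each tumour library was above both healthy ones, and Rbpj-deleted tumour 2 stood highest (Rbpj-deleted against healthy 1.49 ± 0.25, adjusted p = 0.0025). Ctsl was at 1812 and 1817 in healthy brain, 1945 and 1864 in control and 2376 and 3066 in Rbpj-deleted tumours and rose by less (0.78 ± 0.21, adjusted p = 0.0308). That call was lost in 11 of 18 alternatives. Among them were the library split as a batch, library-size scaling, and leaving out any of the libraries except Rbpj-deleted tumour 1. Ctss, at 5942 to 9560 CPM, was higher in tumours than in healthy brain in every library but did not pass (0.64 ± 0.22, adjusted p = 0.0782). Ctsd, at 116 and 242 in healthy brain, 186 and 181 in control and 191 and 255 in Rbpj-deleted tumours, overlapped between healthy brain and tumours and did not pass either.

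Cst3 had lower values in tumours. It took 9.11% and 7.95% of all microglial UMIs in healthy brain, 4.55% and 5.73% in control and 5.17% and 4.24% in Rbpj-deleted tumours. Healthy and tumour libraries did not overlap, but the differences did not pass (control against healthy -0.62 ± 0.23, adjusted p = 0.215, and Rbpj-deleted against healthy -0.66 ± 0.23, adjusted p = 0.0821). With library-size scaling, without the filter on low counts, with DESeq2 or without Rbpj-deleted tumour 1, the second was called. The other 9 genes together took 1.47% and 1.36% of UMIs in healthy brain and 2.24% and 2.69% in Rbpj-deleted tumours.

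Cst7 showed the largest change in microglia. Its level was 10.8 and 7.68 in healthy brain, 36.1 and 82.5 in control and 136 and 163 in Rbpj-deleted tumours, with all 3 groups apart. The difference was 2.75 ± 0.40 for control tumours (adjusted p = 0.0106) and 4.19 ± 0.40 for Rbpj-deleted tumours (adjusted p = 0.000692) against healthy brain. From pooled counts the ratios were 5.64 (95% counting interval 4.79 to 6.63) and 14.3 (12.8 to 16.0), which cover counting error only. A Cst7 UMI was found in 4.95% and 3.75% of microglia-like cells in healthy brain, 15.4% and 22.8% in control and 32.2% and 34.1% in Rbpj-deleted tumours. At an equal depth of 2000 UMIs per cell the shares were 1.83% and 1.40%, 5.66% and 11.0%, and 12.8% and 18.5%. Those shares are over the 4382, 1498, 212, 145, 900 and 428 cells that had that depth. B-like cells gave 0% of 32, 57 and 33 cells in the 3 libraries with over 30 such cells, with upper bounds of 6.27% to 10.9% (exact 95%). These were healthy libraries 1 and 2 and control tumour 1. The median depths of these B-like cells were 2544.5 to 4277 UMIs, against 5329 to 10621 in microglia. The 9 and 23 B-like cells of the Rbpj-deleted tumours had 0 and 2 Cst7 counts before thinning (0 and 20.9 CPM). The call in control tumours was lost without either Rbpj-deleted library and without cluster 4, described further on.

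Cytotoxic lymphocytes also carry Cst7, so their transcripts were read in the same sums. Nkg7, a granule gene of T and NK cells, was at 0.583 to 9.31 CPM in microglia-like cells, and 11 T-cell markers summed to 8.62 and 6.03 CPM in healthy brain and 23.1 to 38.6 in tumours. Counts of Cst7 per count of Nkg7 were 10.3, 10.25 and 16.2 in microglia of healthy brain, control tumours and Rbpj-deleted tumours. In T-like cells the ratios were 0.0602, 0.0895 and 0.0946, and in NK-like cells 0.0387, 0.0666 and 0.0884. The part of lymphocyte RNA in the microglial level of Cst7 was not tested further.

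Rbpj-deleted and control tumours were then compared directly. The library split parts these tumour libraries in the same way as the deletion does. Only the healthy libraries separate the split from the deletion in this contrast. No gene of the 10 was called in microglia by edgeR, where 0.0537% of all genes were (6 of 11174). At an unadjusted p under 0.05 there were 6 of the 10 (12.7% of all genes), and DESeq2 called 3, Ctsb, Ctsz and Cst7 (1.5% of all genes). The differences of these 3 were 0.98 ± 0.25, 0.96 ± 0.24 and 1.43 ± 0.37, with adjusted p of 0.164, 0.164 and 0.226 in edgeR. Without the filter on low counts the same 3 were called, and without Rbpj-deleted tumour 1 it was Ctsa, Ctsb, Ctsc and Ctsz. Border macrophage markers in the microglia-like sums were at 754 CPM in Rbpj-deleted tumour 2 and 152 to 210 in the other 5 libraries. Their part in the high values of that library was not tested.

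**Figure D2:**
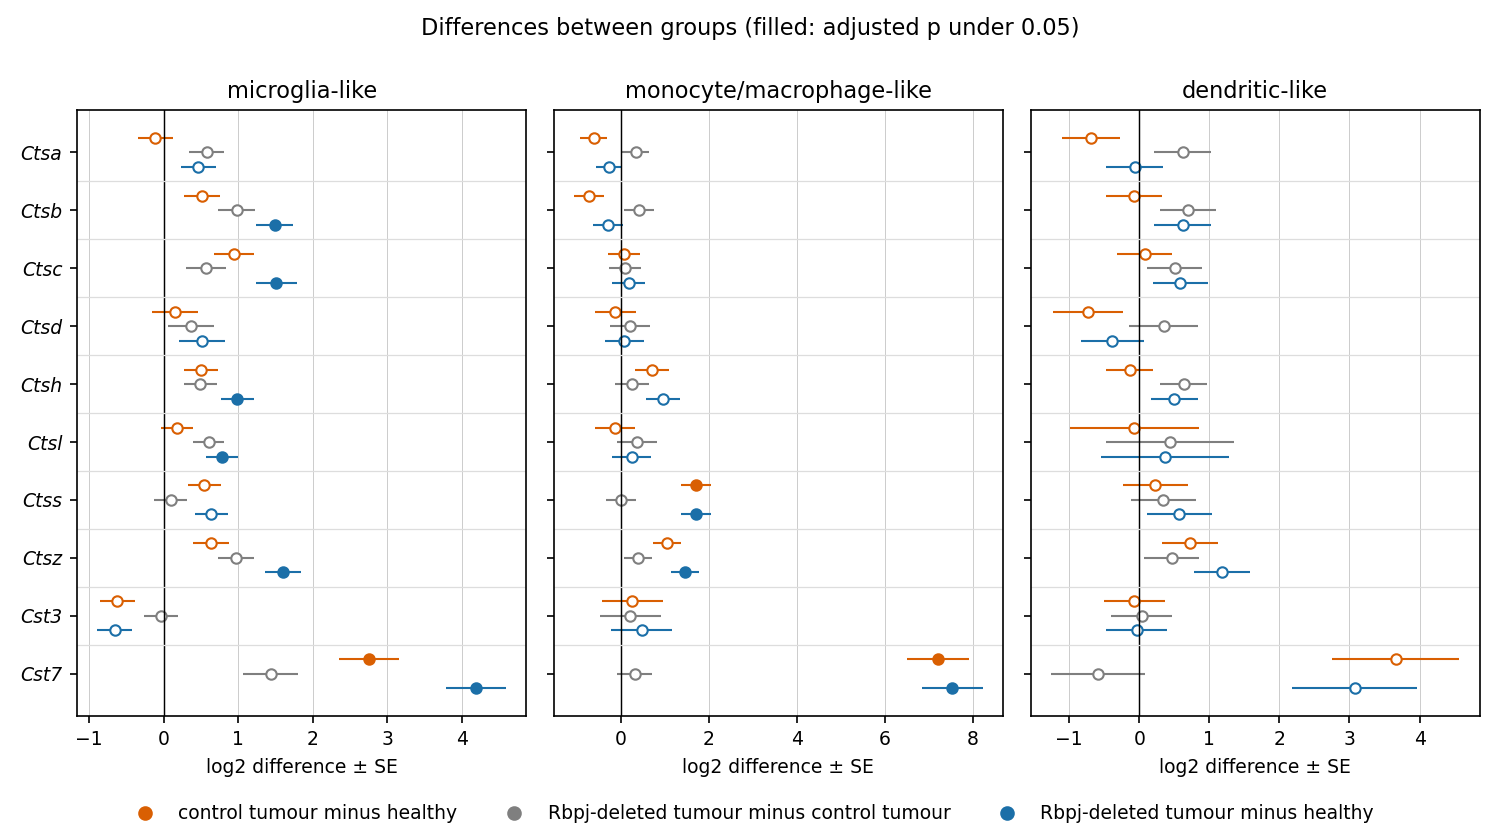
Differences between groups on the log2 scale with their SE from edgeR, for each gene and class; filled points passed an adjusted p of 0.05. Of the 10 genes, 6 pass in microglia-like cells of Rbpj-deleted tumours against healthy brain, 3 pass in monocyte/macrophage-like cells, and none passes in dendritic-like cells.

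The microglia-like class is a mixture whose make-up differed between libraries. Clusters were built without the 10 genes, the other cathepsins and the protease inhibitors. Cluster 1 (led by Gpr34 and Gpr165) held 88.1% of microglia in healthy library 2, while clusters 0 and 2 held 59.2% and 24.7% in healthy library 1. Cluster 8 (Fam167b, Spint1) made up 0.322% and 2.20% of microglia in healthy brain and 24.8% to 45.1% in tumours. Cluster 4 (Ccl4, Ccl3, Cd83, Tnf) had 0 cells in healthy brain, 38.5% and 32.7% of microglia in control and 62.3% and 7.54% in Rbpj-deleted tumours. Cluster 5 (Spp1, Cd9, Apoc1) was at 4.94% to 7.70% in 5 libraries and 52.6% in Rbpj-deleted tumour 2.

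Protease levels differed between these clusters within 1 library and within healthy brain. In cluster 5 Ctsb was at 3887 and 4787 in healthy brain, 4752 in replicate 1 of the control and 5648 and 7388 in Rbpj-deleted tumours, for the 5 libraries with at least 10 such cells. In cluster 8 it was at 2681 and 2169.7 in healthy brain, 2127 and 2016 in control and 2390.3 and 3663 in Rbpj-deleted tumours, lower than in cluster 5 in each of these 5 libraries. Ctsz was likewise higher in cluster 5, 3580.3 and 3509.6 in healthy brain, 4662 in replicate 1 of the control and 5274 and 6434 in Rbpj-deleted tumours, than in cluster 8, 2204 and 1669.7 in healthy brain, 2044 and 1821 in control and 2349.8 and 3697 in Rbpj-deleted tumours. Cst7 in cluster 5 was at 49.7 and 38.7 in healthy brain, 103 in replicate 1 of the control and 213 and 181 in Rbpj-deleted tumours, so healthy brain held Cst7-bearing microglia as well, and the tumour libraries lay above the healthy ones. In cluster 4, found in tumours only, it was at 49.1 and 118 in control and 152 and 387 in Rbpj-deleted tumours.

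Ctss and Cst3 were ordered differently. Ctss in cluster 4 was at 10168 and 9592 in control and 9959 and 9198 in Rbpj-deleted tumours, above cluster 8 in 3 of these 4 libraries, and in cluster 5 at 6960.1 and 6133 in healthy brain, 5832 in replicate 1 of the control and 8358 and 6682 in Rbpj-deleted tumours. Cst3 was at 35253 and 44987 in control and 45397 and 29922 in Rbpj-deleted tumours in cluster 4 and at 79533 and 62493 in healthy brain, 27132 in replicate 1 of the control and 47736 and 33094 in Rbpj-deleted tumours in cluster 5, where healthy and tumour libraries parted. In cluster 8 it was at 83535 and 64858 in healthy brain, 56927 and 68303 in control and 76616 and 64945 in Rbpj-deleted tumours, with the groups overlapping. In cluster 1 Cst3 was highest in Rbpj-deleted tumours, 81174 and 81748 in healthy brain, 64028 and 86661 in control and 108030 and 102240 in Rbpj-deleted tumours.

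When microglia-like cells of 1 cluster alone were fitted, an alternative chosen after seeing the data, no gene of the 10 was called against healthy brain. For control tumours 0.0808% of genes were called in cluster 8 and 0.0377% in cluster 1. In cluster 8 of control tumours the difference was 0.09 ± 0.85 for Cst7 and 0.01 ± 0.27 for Ctsz, against 2.75 ± 0.40 and 0.64 ± 0.24 in the whole class. Cluster 8 alone gave 0 calls in Rbpj-deleted tumours (edgeR; 1.08% of 7422 genes were called), with 4 of the 10 at an unadjusted p under 0.05; DESeq2 was not run on single clusters. There Ctsb differed by 0.41 ± 0.26, Ctsz by 0.73 ± 0.27, Ctsc by 0.97 ± 0.31 and Cst7 by 1.84 ± 0.70, each smaller than in the whole class. In cluster 8, Rbpj-deleted tumour 2 stood above all other libraries in Ctsb, Ctsz, Ctsc and Cst7, with Ctsc at 485 and 689 in healthy brain, 679.8 and 665 in control and 728 and 1474 in Rbpj-deleted tumours. In cluster 1 alone the difference of Ctsb was -0.56 ± 0.26 and that of Ctsz -0.07 ± 0.29 (0.113% of 2650 genes called, 0 of the 9 members tested, Ctsb at an unadjusted p of 0.0469). Healthy library 1 has 15 cells in cluster 8 and 31 in cluster 1. Cluster 1 holds 17 and 14 cells in control and 31 and 20 in Rbpj-deleted tumours. Clusters 4 and 5 could not be fitted alone, because at least 10 cells per library were required. Cluster 4 had 0 cells in healthy brain and cluster 5 had 8 in control tumour 2. The SE of Ctsb was 0.26 in both clusters and 0.25 in the class, and that of Cst7 was 0.70 in cluster 8 and 0.40 in the class.

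**Figure D3:**
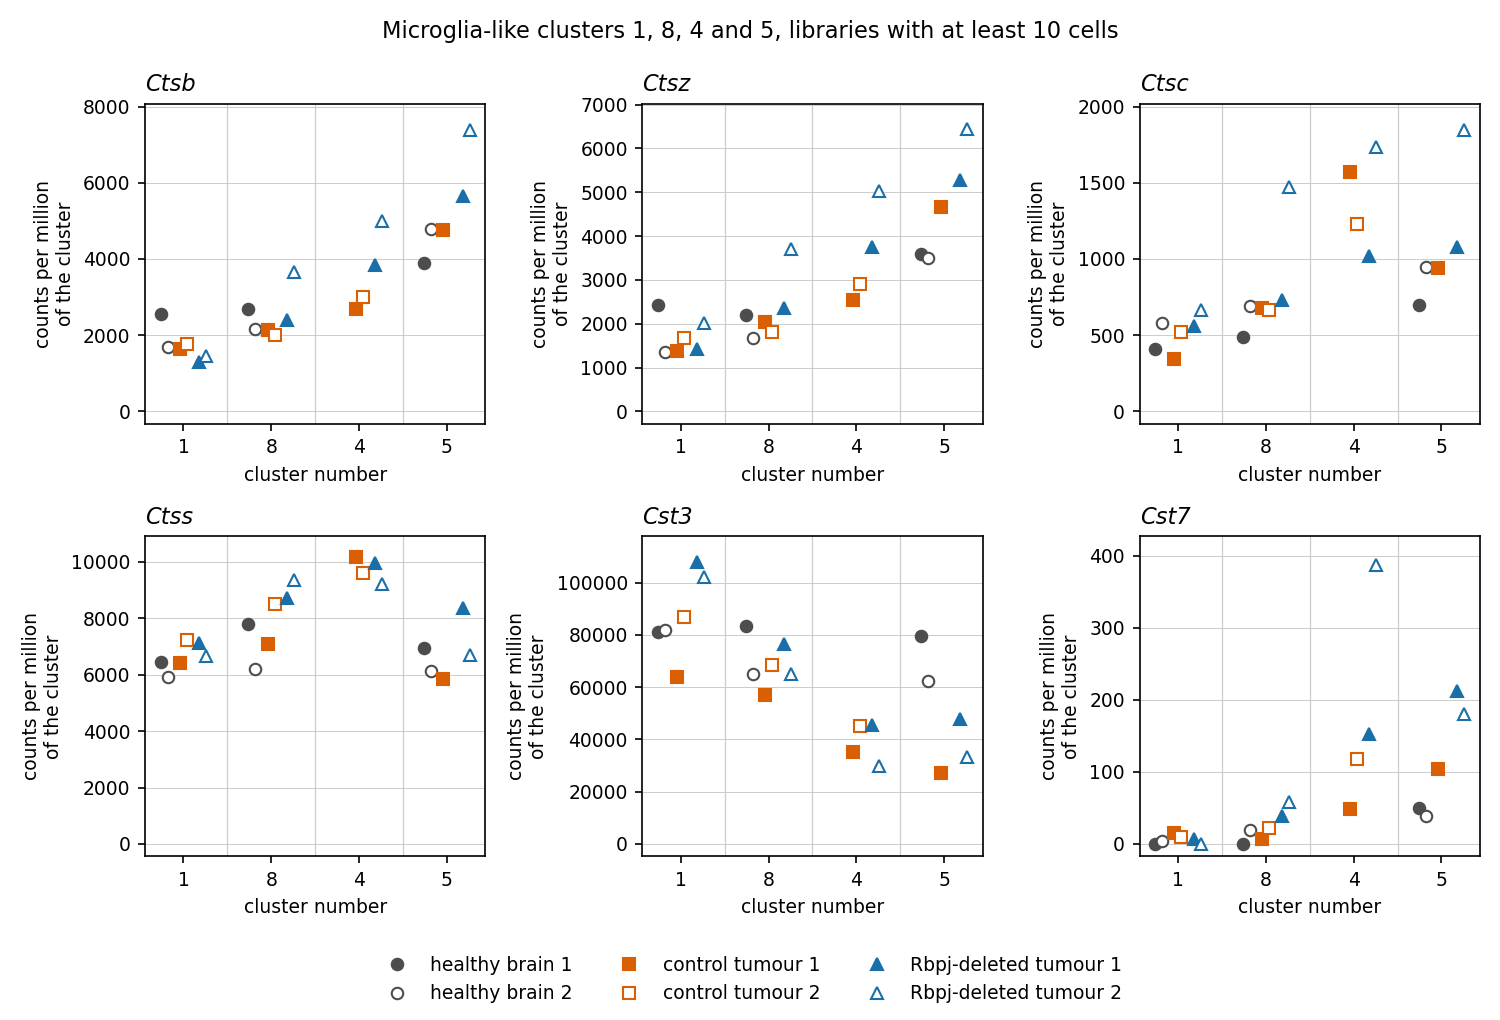
Levels of 6 genes in microglia-like clusters 1, 8, 4 and 5, in CPM of the cluster, for libraries with at least 10 cells; symbols are as in the plot of levels. Ctsb, Ctsz and Cst7 are higher in clusters 4 and 5 than in clusters 1 and 8 of the same library, and Cst3 is lowest in tumour libraries of clusters 4 and 5.

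Macrophages of both tumour groups carried more Ctss and Cst7 than those of healthy brain, and those of Rbpj-deleted tumours more Ctsz. In monocyte/macrophage-like cells of control tumours 2 of the 10 genes were called, both higher, where 8.59% of 10258 genes were called (5.45% higher). In Rbpj-deleted tumours 3 were called, all higher, where 8.39% of genes were (5.1% higher). The median difference of the 10 genes was 0.17 and 0.37, against 0.01 over all genes in both comparisons, which again share the healthy libraries. Of the 10258 genes, 1787 lay above and 4393 below both healthy libraries in both control tumours, with 4 and 3 of the 10. For Rbpj-deleted tumours these numbers were 1836 and 4481, with 4 and 2 of the 10.

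Ctss, the protease that finishes the trimming of the invariant chain, was at 2034 and 1752 in healthy brain, 4430.4 and 5840.1 in control and 5685 and 4672 in Rbpj-deleted tumours. The lowest tumour library stood above both healthy ones (control against healthy 1.71 ± 0.35, adjusted p = 0.0229, and Rbpj-deleted against healthy 1.72 ± 0.35, adjusted p = 0.0224). The carboxypeptidase Ctsz was at 1214 and 1289 in healthy brain, 1999.7 and 2329.9 in control and 2767 and 2923 in Rbpj-deleted tumours, with the same order of groups (Rbpj-deleted 1.46 ± 0.32, adjusted p = 0.0308, control 1.06 ± 0.32, adjusted p = 0.0813). Leaving out either healthy library, or entering the library split as a batch, ended the calls of Ctss in both tumour groups and that of Ctsz in Rbpj-deleted tumours. Leaving out either Rbpj-deleted library ended both calls in that group.

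Cst7 was nearly absent from healthy macrophages. It had 1 count in 508 cells of healthy library 1 and 1 count in 269 cells of healthy library 2. In tumours its level was 35.8 and 64.7 CPM in the control libraries and 86.3 and 38.7 in the Rbpj-deleted ones. From pooled counts the ratio to healthy brain was 124 (95% counting interval 33.8 to 1030) in control and 182 (50.3 to 1500) in Rbpj-deleted tumours. Both comparisons passed (adjusted p = 0.00251 and 0.00184, edgeR). The share of macrophages with a Cst7 UMI was 17.8% and 26.0% in control and 31.9% and 14.0% in Rbpj-deleted tumours, and 5.29%, 4.17%, 8.47% and 3.32% at 2000 UMIs per cell. In healthy brain that thinned share was 0% of 447 cells (exact 95% upper bound 0.822%) and 0.392% of 255 cells. The tumour shares are over 189, 72, 626 and 723 cells.

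T-cell and granule transcripts were read in macrophages too. Among the tumour libraries, control tumour 1 had the most T-cell markers and the least Cst7 (35.8 CPM). The 11 T-cell markers summed to 52.2 and 36.4 CPM in healthy brain, 307 and 171 in control and 180 and 52.2 in Rbpj-deleted tumours, and Nkg7 went from 1.24 and 0.461 to 41.0, 52.7, 35.4 and 11.1. Counts of Cst7 per count of Nkg7 were 0.4 in healthy brain (from 2 and 5 counts), 1.02 in control and 2.61 in Rbpj-deleted tumours. In T-like cells of these groups they were 0.060, 0.0895 and 0.0946. The part of lymphocyte RNA in the Cst7 level of macrophages was not tested further.

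Other members did not pass in macrophages. Ctsb, at 4534 and 4509 in healthy brain, 1833 and 2748 in control and 3276 and 2884 in Rbpj-deleted tumours, was lower in every tumour library than in healthy brain (-0.71 ± 0.34, adjusted p = 0.244 in control tumours). Ctsa followed the same order, at 1045 and 1036 in healthy brain, 467 and 667 in control and 737 and 696 in Rbpj-deleted tumours (-0.61 ± 0.30, adjusted p = 0.265). Ctsh was at 869 and 474 in healthy brain, 924 and 884 in control and 928 and 1237 in Rbpj-deleted tumours and higher in each tumour library (0.96 ± 0.39, adjusted p = 0.178 in Rbpj-deleted tumours). Ctsc, Ctsd, Ctsl and Cst3 overlapped between healthy brain and tumours in at least 1 of the 2 comparisons, and their differences lay between -0.13 and 0.48. Ctsl in macrophages, 1069.8 and 825 in healthy brain, 427 and 1027 in control and 1195 and 694 in Rbpj-deleted tumours, was lowest in control tumour 1, the library with the fewest microglia markers in this class.

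No gene of the 10 was called between Rbpj-deleted and control tumours in macrophages by edgeR, where 0 of 10258 genes were (0.0%). DESeq2 called 0 of the 10 (0.205% of genes), and 0 of the 10 had an unadjusted p under 0.05 (4.4% of genes). Intervals were wide: the SE of the log2 difference was 0.30 to 0.69 over the 10 genes.

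Here too the class was a mixture. Cluster 6 (Lyve1, Cd163, F13a1) held 82.1% and 79.2% of macrophages in healthy brain and 2.97% to 10.4% in tumours. Cluster 3 (Saa3, Ly6i, Plac8), led by monocyte genes, held 2.36% and 8.18% in healthy brain, 62.9% and 32.5% in control and 27.3% and 73.8% in Rbpj-deleted tumours. Cluster 7 (Ccl8, Gbp2b) had 0 and 2 cells in healthy brain and 22.3% to 67.8% of macrophages in tumours.

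Ctsb was highest in cluster 6, 4703 and 4924 in healthy brain, 4215 in replicate 1 of the control and 4578 and 5979 in Rbpj-deleted tumours, where healthy and tumour libraries overlapped. It was lowest in cluster 3, 1377 and 1299.6 in healthy brain, 1059.8 and 1941 in control and 1962 and 2499 in Rbpj-deleted tumours, where the Rbpj-deleted libraries stood above the healthy ones. Ctss ran the other way, at 1959 and 1626 in healthy brain, 2057 in replicate 1 of the control and 3066 and 2314 in Rbpj-deleted tumours in cluster 6, 3823 and 2764 in healthy brain, 4353 and 4863 in control and 5392 and 4845 in Rbpj-deleted tumours in cluster 3 and 5282 and 6324 in control and 5835 and 4319 in Rbpj-deleted tumours in cluster 7. Within cluster 3 each tumour library was above both healthy ones for Ctss and for Ctsz, which was at 1357 and 1135 in healthy brain, 2025 and 2568 in control and 2969 and 2902 in Rbpj-deleted tumours. Cst7 in cluster 3 had 0 counts in the 12 and 22 healthy cells and was at 41.3 and 75.4 CPM in control and 58.0 and 35.4 in Rbpj-deleted tumours. In cluster 6 of tumours it was listed at 0 in control tumour 1 and at 16.4 and 13.2 CPM, from 4 and 2 counts, in the Rbpj-deleted tumours.

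Fitting cluster 3 alone, also chosen after seeing the data, kept Cst7 as the only call in control tumours (2.94% of 8177 genes called) and Cst7 and Ctsz in Rbpj-deleted tumours (2.59%). Ctsz differed by 1.47 ± 0.29 (adjusted p = 0.0182). Ctss no longer passed, at 0.76 ± 0.28 (adjusted p = 0.189) in control tumours and 0.87 ± 0.28 (adjusted p = 0.146) in Rbpj-deleted tumours. Without cluster 3, Ctss and Cst7 were called in both tumour groups and Ctsz in Rbpj-deleted tumours.

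**Figure D4:**
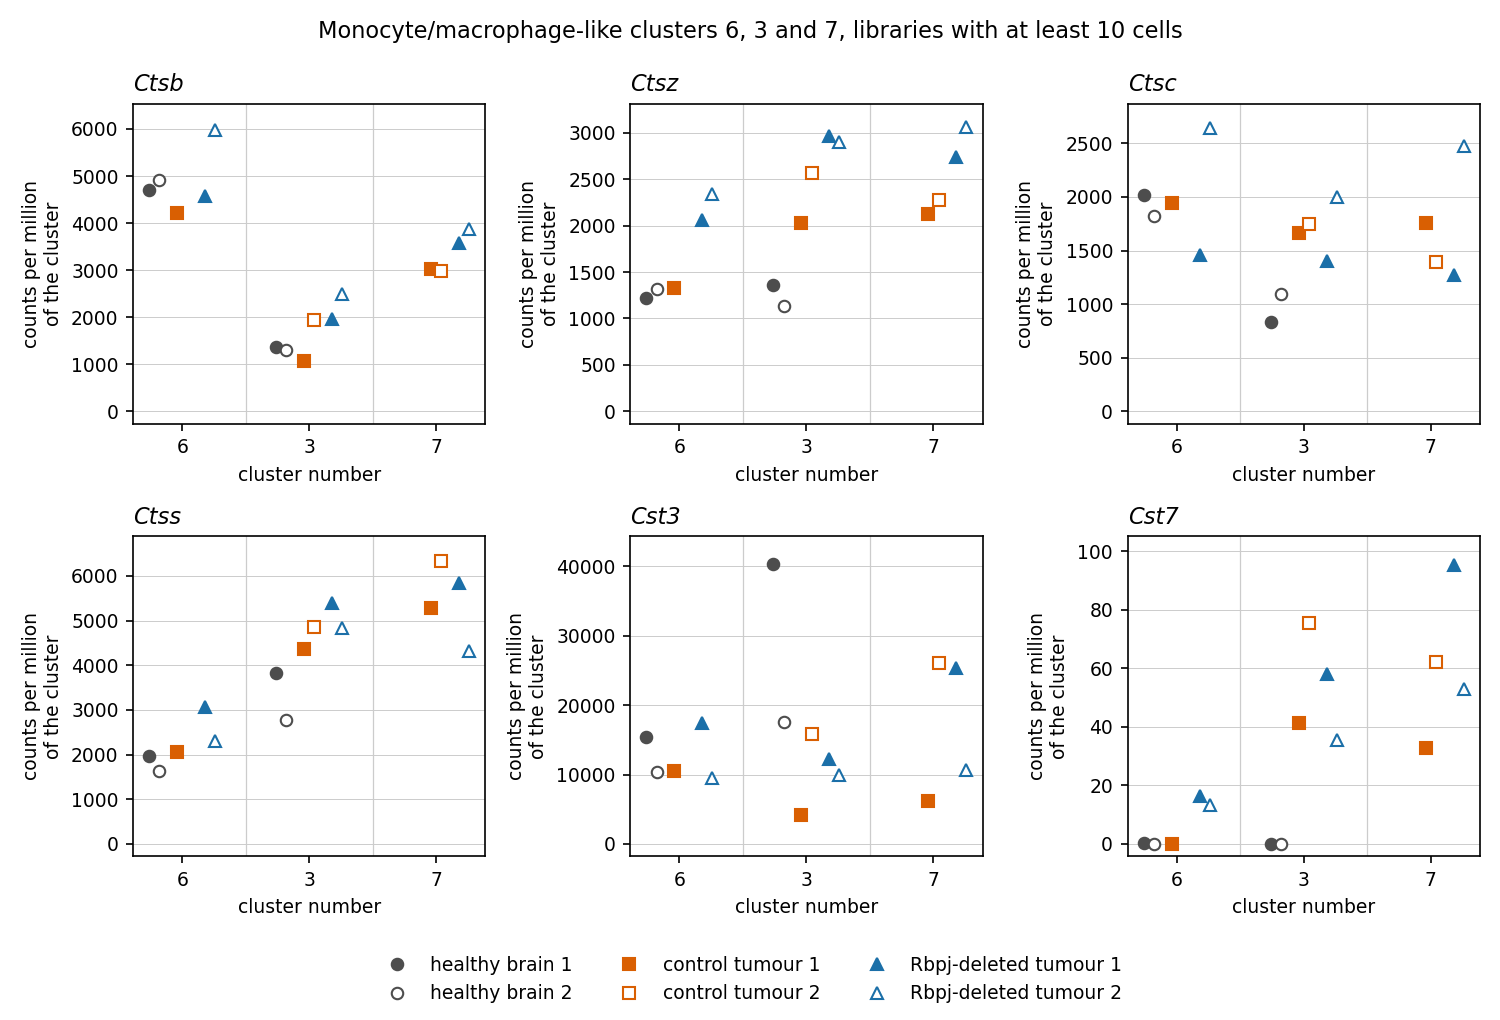
Levels of 6 genes in monocyte/macrophage-like clusters 6, 3 and 7, in CPM of the cluster, for libraries with at least 10 cells; symbols are as in the plot of levels. Ctsb is highest in cluster 6 and Ctss in clusters 3 and 7, and Cst7 is at or near 0 in both healthy libraries.

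In dendritic-like cells no gene of the 10 was called. Against healthy brain edgeR called 0 in control tumours (3.38% of 7846 genes called) and 0 in Rbpj-deleted tumours (2.73%), and between tumours 0 (0.0255%). At an unadjusted p under 0.05 there were 1, 2 and 0 of the 10 (16.2%, 12.1% and 5.82% of genes). DESeq2 called Cst7 in the first and second of these comparisons (3.08% and 2.54% of genes) and 0 of the 10 between tumours (0.051%). Of the 7846 genes, 1474 lay above and 2128 below both healthy libraries in both control tumours, with 1 and 1 of the 10. For Rbpj-deleted tumours these numbers were 1368 and 2061, with 5 and 0 of the 10. Between Rbpj-deleted and control tumours they were 1414 above and 1204 below, with 3 and 0 of the 10.

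Cst7 in dendritic-like cells was at 5.06 and 5.92 in healthy brain, 24.2 and 122 in control and 45 and 40.5 in Rbpj-deleted tumours. The healthy values rest on 5 and 3 counts, and all 42 counts of control tumour 2 came from 1 of its 15 cells. Pooled counts gave ratios to healthy brain of 8.11 (95% counting interval 3.91 to 19.5) and 8.16 (4.03 to 19.3), and the fitted differences were 3.66 ± 0.91 (adjusted p = 0.0911) and 3.07 ± 0.89 (adjusted p = 0.171). Ctsz was at 1321 and 756 in healthy brain, 1160.3 and 2034 in control and 2100.4 and 2274 in Rbpj-deleted tumours and above both healthy libraries in Rbpj-deleted tumours (1.18 ± 0.40, adjusted p = 0.181). Ctss, at 3565 and 1427 in healthy brain, 1901 and 3503 in control and 4203 and 2676 in Rbpj-deleted tumours, overlapped between the groups. Ctsb, at 1395 and 953 in healthy brain, 677 and 1405 in control and 1857 and 1507 in Rbpj-deleted tumours, was higher in both Rbpj-deleted libraries than in the other 4, and no difference between groups passed (Rbpj-deleted against healthy 0.62 ± 0.40, adjusted p = 0.616).

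Ctsl in dendritic-like cells spread over a wide range, 872 and 197 in healthy brain, 189 and 759 in control and 819 and 457 in Rbpj-deleted tumours. The microglia markers in these sums were at 8319 and 2043 CPM in healthy brain, 723 and 3292 in control and 3549 and 2113 in Rbpj-deleted tumours, and put the 6 libraries in the same order as Ctsl. Neutrophil markers summed to 16465 CPM in healthy library 2 and 27.7 to 113 in the others. The part of either in these levels was not tested. Ctsa, at 627 and 357 in healthy brain, 182 and 397 in control and 480 and 396 in Rbpj-deleted tumours, Ctsc, at 744 and 515 in healthy brain, 411 and 837 in control and 831 and 925 in Rbpj-deleted tumours, and Ctsd, at 53.6 and 33.6 in healthy brain, 14.9 and 43.5 in control and 34.5 and 28.4 in Rbpj-deleted tumours, were all lowest in control tumour 1.

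Cluster 20 (Ccl22, Ccr7) held 2.5% to 4.23% of dendritic-like cells in healthy brain and 30.8% to 45.2% in tumours. There control tumour 1 (24 cells) was far below the Rbpj-deleted tumours in most of these genes. Ctsb was at 239.8 in replicate 1 of the control and 2324 and 2143 in Rbpj-deleted tumours, Ctsa at 45.8 in replicate 1 of the control and 562 and 511 in Rbpj-deleted tumours and Ctsl at 14.1 in replicate 1 of the control and 1059 and 807 in Rbpj-deleted tumours. Ctsh and Cst3 did not share this pattern, with Ctsh at 1019 in replicate 1 of the control and 1005 and 1221 in Rbpj-deleted tumours. In cluster 13 (Cd209a, Clec4b1), the rest of the class, Ctsb was at 1419 and 972 in healthy brain, 787 and 797 in control and 1219 and 1030.5 in Rbpj-deleted tumours and Ctsz at 1312 and 749.9 in healthy brain, 1195 and 1228 in control and 1766 and 1851 in Rbpj-deleted tumours. Without cluster 20 no gene of the 10 was called in any of the 3 comparisons.

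Whether tumour differences were unequal between classes was tested as an interaction. For control tumours against healthy brain, 0 of the 10 genes passed between macrophages and microglia with edgeR (2.68% of 10845 genes), 4 had an unadjusted p under 0.05 (17.9% of genes), and DESeq2 called 3 (3.92%). The nearest were Cst7 (4.58 ± 0.97, adjusted p = 0.0582), Ctss (1.16 ± 0.27, adjusted p = 0.0585) and Ctsb (-1.25 ± 0.32, adjusted p = 0.0817). Ctsb had higher values in control tumours than in healthy brain in microglia and lower ones in macrophages, and neither difference passed (adjusted p = 0.358 and 0.244). Both signs turned within single clusters, to -0.26 ± 0.26 and -0.21 ± 0.26 in microglia clusters 1 and 8 and to 0.42 ± 0.33 in macrophage cluster 3. The same contrast gave 0 of 10 between dendritic-like cells and microglia (0.716% of genes), with 1 at an unadjusted p under 0.05 (11.8%) and 0 called by DESeq2 (1.58%). It gave 0 between dendritic-like cells and macrophages (2.63%), with 4 at an unadjusted p under 0.05 (14.8%) and 0 called by DESeq2 (2.17%). For Rbpj-deleted against control tumours the 3 pairs of classes gave 0, 0 and 0 of 10 with edgeR (0.0184%, 0.0785% and 0.0198% of genes), 1, 1 and 0 at an unadjusted p under 0.05 (7.24%, 8.85% and 5.06%), and 0 in each with DESeq2 (0.233%, 0.309% and 0.167%). The 3 pairs are macrophages with microglia, dendritic-like cells with microglia and dendritic-like cells with macrophages.

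Other genes of the lysosome were read from lists chosen with these results known, so their counts are a description. In microglia of Rbpj-deleted tumours against healthy brain 16 of 39 lysosomal hydrolases and cofactors were called higher and 0 lower, 9 of 33 genes of the lysosomal membrane and its proton pump were higher and 0 lower, and 2 of 18 sorting genes were higher, where 8.26% of all genes were called higher. The list medians were 0.58, 0.30 and 0.15, against -0.03 over all genes. Examples were Gla, a galactosidase (1.86 ± 0.21, adjusted p = 0.00012), Npc2, a cholesterol carrier (1.37 ± 0.21, adjusted p = 0.00163), and Atp6v0c, a proton pump subunit (1.38 ± 0.23, adjusted p = 0.00254). Cd63, a lysosomal tetraspanin, rose by 1.62 ± 0.30 (adjusted p = 0.00563), with 883 and 1724 CPM in the Rbpj-deleted tumours and 465 and 507 in healthy brain. In control tumours 1 of 39, 2 of 33 and 0 of 18 were higher (2.79% of all genes), among them Gla and Slc15a3, a lysosomal transporter.

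In macrophages of control tumours 3 of 38 hydrolases, 3 of 33 membrane genes and 2 of 18 sorting genes were higher, and 1, 0 and 1 were lower. In Rbpj-deleted tumours 2, 3 and 1 were higher and 1 of each list was lower. These shares lie near the 5.45% and 5.1% of all genes called higher. Psap, the saposin precursor, rose from 1176 and 1214 CPM in healthy brain to 3599 and 2842 in control tumours (1.71 ± 0.34, adjusted p = 0.0223) and 3146 and 3490 in Rbpj-deleted tumours (1.75 ± 0.34, adjusted p = 0.0207). Galc, the galactosylceramidase, fell from 99.2 and 108 CPM to 23.6 and 29.8 in control tumours (-1.69 ± 0.23, adjusted p = 0.00649) and 32.1 and 26.5 in Rbpj-deleted tumours (-1.55 ± 0.22, adjusted p = 0.00715). Dendritic-like cells had 1 of 37 hydrolases higher in control tumours, Ppt1, and 0 in Rbpj-deleted tumours (3.38% and 2.73% of all genes in either direction).

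Of the other cathepsins and the legumain gene, 1 of 5 tested in microglia was called in control tumours, Ctse, at 14.2 and 11.0 CPM against 2.52 and 0.681 in healthy brain. In Rbpj-deleted tumours it was Ctsw, a cathepsin of cytotoxic lymphocytes, at 4.91 and 5.09 CPM against 0.689 and 0.389. Ctsw was also the 1 of 5 called in macrophages, listed at 0 in both healthy libraries and at 5.91 to 21.8 CPM in tumours. It was at 302 to 891 CPM in T-like cells of tumours and 793 to 1671 in NK-like cells of tumours, and the part of lymphocyte RNA in its macrophage level was not tested.

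Of the other protease inhibitors, 5 of 12 tested in microglia were higher in control tumours and 8 of 12 in Rbpj-deleted tumours, with 0 lower in both (2.79% and 8.26% of all genes higher). Cstb, the cytosolic cystatin B, was at 106 and 90.5 CPM in healthy brain, 211 and 162 in control and 242 and 346 in Rbpj-deleted tumours (1.03 ± 0.23 and 1.78 ± 0.23 against healthy, adjusted p = 0.0292 and 0.0004). Serpina3f, a serpin, had 0 counts in microglia of healthy brain, 49.8 and 50.4 CPM in control and 11.8 and 8.98 in Rbpj-deleted tumours, and was the 1 inhibitor that differed between the tumour groups (-2.15 ± 0.27, adjusted p = 0.0141). In macrophages 6 of 15 inhibitors were higher in each tumour group (5.45% and 5.1% of all genes), and 2 and 3 were lower. Serpinb6a, a serpin of the cytosol, was among the lower ones, at 339 and 260.2 CPM in healthy brain and 52.1 to 69.8 in tumours. In dendritic-like cells 5 of 13 were higher in each tumour group and 1 and 0 lower (3.38% and 2.73% of all genes called in either direction), with Serpinb6b at 3.03 and 1.97 CPM in healthy brain and 188 to 584 in tumours.

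The class II genes, whose invariant chain is a substrate of Ctss, were called higher in 6 of 10 in microglia of each tumour group, in 9 and 7 of 10 in macrophages of control and Rbpj-deleted tumours, and in 1 and 0 of 9 in dendritic-like cells. The shares of all genes called higher were 2.79% and 8.26% in microglia and 5.45% and 5.1% in macrophages of the 2 tumour groups. Cd74, the invariant chain, was at 71.3 and 52.5 CPM in microglia of healthy brain and 4359 to 12204 in tumours. In macrophages it went from 401 and 945 to between 10851 and 20394.

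Likeness to other genes was measured as Pearson's r of log2 CPM over the 18 sums of class and library, which share libraries and depth. Over 5501 genes outside the 10, the closest to Ctsl was Lgmn, the legumain gene (r = 0.975), and the closest to Ctsa was Atp6ap1, a proton pump accessory gene (r = 0.973). Cst3 was most like Ckb (0.961) and Col27a1 (0.951), and Ctss most like Ly86 (0.959) and Lair1 (0.949). For Ctsd the closest were Dpy19l4 (0.957) and Daglb (0.948), for Ctsb Prdx4 (0.936) and Lipa (0.925), and for Ctsc Tpd52 (0.935) and Atp6v0c (0.919). Cst7 was most like AU020206 (0.918) and Psap (0.87), and Ctsz most like Pycard (0.904) and Aif1 (0.871). Ctsh had no close match, with Mpst at 0.766 and Shisa5 at 0.765.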

How the data were processed

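The authors deposited whole-number UMI counts per gene and barcode from 10x 3' v3 libraries. Per the submitters' processing notes, kallisto 0.46.0, bustools 0.39.3 and mm10 were used, with no role given. Barcodes with fewer than 500 genes or over 10% mitochondrial counts (17), index-hopped copies (256) and barcodes with markers of a pair of lineages (3479) were removed, leaving 13610 of 17362. No doublet caller was run. Cells were clustered on a shared-neighbour graph with the Leiden method of igraph 0.11.9 (2000 variable genes, 30 components, 20 neighbours, resolution 1). The 10 genes and related lists were left out, and clusters were named from marker lists. Counts were summed per library and class (at least 10 cells) and fitted with edgeR 4.0.16 (filterByExpr, TMM, robust quasi-likelihood, 3 groups together, 3 residual degrees of freedom). The SE is the log2 difference divided by the root of the F statistic. Class pairs had library as a block. DESeq2 1.42.0, scaling, filters, left-out libraries and clusters were alternatives. An exact permutation test of 2 against 2 libraries could not give a p under 0.333. All 10 genes are named; of each list, up to 4 called genes of smallest p; and 2 genes most like each. Members and lists were chosen with earlier results of these data known.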

Additional observations from a re-analysis of the deposited data

Results flagged for a closer look

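Cst7 also stood out in cells outside the 3 myeloid classes. In T-like cells its mean level was 236 CPM in control tumours (223 and 248 in the 2 libraries) and 273 CPM in Rbpj-deleted tumours (301 and 246), against 13.1 and 55.1 CPM in healthy brain, where the values rest on 1 and 7 counts in 12 and 15 cells. Both means lay above each healthy library, and the difference was not tested. NK-like cells held 152 to 334 CPM in tumours and 162 CPM in healthy library 2, from 13 cells.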

How the results depend on the processing

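Of the recomputed counts of called members, 232 stayed within 1.5 times of the reported count and 56 did not; of values for the 65 pairs of gene and comparison with an unadjusted p under 0.05, 883 kept direction and call, 86 gained a call, 70 lost one and 10 changed sign. In microglia, control tumours against healthy brain gave 2 with DESeq2, with no filter on low counts and with the crossed block, and 0 without cluster 4 and in cluster 1 or 8 alone. Rbpj-deleted against control tumours gave 3 with DESeq2 and with no filter, and 0 to 4 when single libraries were left out. Rbpj-deleted tumours against healthy brain gave 0 in cluster 1 or 8 alone and 4 to 8 without single libraries. In macrophages, control tumours against healthy brain gave 1 with the library split as batch, with the replicate block and in cluster 3 alone, and 1 to 2 without single libraries. Rbpj-deleted tumours gave 1 with the batch and the block, and 1 to 3 without single libraries. In dendritic-like cells, control tumours gave 1 with DESeq2, no filter, the replicate block and the crossed block, Rbpj-deleted tumours gave 1 with DESeq2 and no filter and 2 with the crossed block, and both gave 0 to 1 without single libraries. The difference of control tumours against healthy brain between macrophages and microglia gave 3 with DESeq2, no filter or mixed barcodes kept, 5 with mixed barcodes removed at 10%, 1 with the replicate block, 4 with the crossed block and 0 to 1 without single libraries. Between dendritic-like cells and macrophages it gave 2 with no filter, 1 with the batch or the crossed block and 0 to 2 without single libraries. The difference of Rbpj-deleted against control tumours gave 1 with no filter or mixed barcodes kept (macrophages and microglia), and 1 with no filter or the crossed block and 0 to 1 without single libraries (dendritic-like cells and microglia). Dendritic-like cells against macrophages gave 8 with no filter and 4 to 8 without single libraries. Among those pairs the sign turned in cluster 1 alone for Ctsc (-0.20), Ctsh (-0.079) and Ctsz (-0.25) in control tumours against healthy brain, for Ctsa (-0.081), Ctsb (-0.30) and Ctsl (-0.185) in Rbpj-deleted against control tumours, and for Ctsb (-0.56), Ctsz (-0.070) and Cst3 (0.43) in Rbpj-deleted tumours against healthy brain. Cst3 also turned in cluster 8 alone (0.007). Over all 180 pairs, 240 of 2877 values had the opposite sign. Among pairs with a larger p, Ctsb turned in control tumours against healthy brain in microglia clusters 1 and 8 alone (-0.26 and -0.21), Ctsd in cluster 1 alone (-0.42 and -0.31 for Rbpj-deleted against control tumours and healthy brain), and Cst3 in macrophages of control tumours in 7 of 17 alternatives. The cause was not tested.

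Replicate numbers did not pair the libraries: deviations of libraries with the same number correlated at -0.408 to 0.171 over the 3 classes. The block left the other counts of calls within 1.5 times. The crossed block, with the control numbers exchanged, called 372, 36 and 1401 genes in the 3 microglia comparisons, against 352, 6 and 1325. Limits come from 2 libraries per group, from 15 dendritic-like cells in control tumour 2, and from 1 Cst7 count in each healthy macrophage sum, so the fitted fold of Cst7 there is no bound.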
